A study of Mus musculus with 4 samples.

Results

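The NR4A and EGR activation factors are 6 mouse genes of 38282 listed in each of 2 expression tables: Nr4a1, Nr4a2 and Nr4a3, and Egr1, Egr2 and Egr3. They were chosen by name, as the members of both families that T cell receptor signalling induces, and each was found by the Ensembl ID that GENCODE M21 gives it. Th0+Dopa cultures were naive CD4+ T cells from the spleen of C57BL/6 mice, kept in the Th0 condition with dopamine and harvested on day 4. Th0 cultures were the same cells in the same condition and for the same time without dopamine. Each group held 2 RNA libraries, numbered 2 and 3, and the series concerns dopaminergic nerves and type 2 inflammation of the lung after birth. No dose or timing of dopamine, no activating stimulus and no age or sex of the mice is stated in the labels. They do not say either whether libraries of a group are separate animals or cultures. The p-values therefore speak only of the spread among these libraries, and that spread may be technical.

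The members lie on 6 different chromosomes, and no other gene of GENCODE M21 overlaps any of them. In GRCm38 coordinates, Nr4a1 (ENSMUSG00000023034) lies on chromosome 15 from 101254269 to 101274795, Nr4a2 (ENSMUSG00000026826) on chromosome 2 from 57106830 to 57124003 and Nr4a3 (ENSMUSG00000028341) on chromosome 4 from 48045153 to 48086447. Egr1 (ENSMUSG00000038418) lies on chromosome 18 from 34859823 to 34864984, Egr2 (ENSMUSG00000037868) on chromosome 10 from 67535475 to 67542188 and Egr3 (ENSMUSG00000033730) on chromosome 14 from 70077203 to 70082614. All 6 code for protein. The GC content of their transcripts ranged from 49.8% for Nr4a2 to 56.3% for Egr3.

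NR4A proteins are nuclear receptors that act without a known hormone and are controlled mainly by how much of them a cell makes. Their genes are switched on within the first hours of antigen receptor signalling and, in many cell types, by cyclic AMP acting through the factor CREB. Nr4a1 is widely used as a reporter of T cell receptor signal strength, and Nr4a2 is also known as a factor that dopamine neurons need for their development. EGR proteins are zinc finger transcription factors. Egr1 is a classical target of the ERK kinases acting through serum response factor (SRF), while Egr2 and Egr3 depend more on calcium, calcineurin and NFAT, and restrain activated T cells. Dopamine receptors are coupled to G proteins and either raise or lower cyclic AMP, depending on the receptor.

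The stretches just upstream of the annotated start are shown because NR4A and EGR genes are textbook targets of signals that end at such elements. They are given for 4 members only. No window was used for Egr1 and Egr3, so nothing is said here of their elements. They come from RefSeq (GRCm38.p6), read 5′ to 3′ on the strand of the gene, and stop before the first base that GENCODE M21 annotates as an exon. Capitals mark TGACG on either strand (CGTCA where it lies on the other strand), the core of a CREB site, and in Egr2 also a CArG box, the site that SRF binds. Nr4a1 is read at chr15:101266596-101266845 (+), Nr4a2 at chr2:57124004-57124253 (-), Nr4a3 at chr4:48045055-48045152 (+), and Egr2 at chr10:67537619-67537868 (+). The Nr4a1 and Egr2 stretches lie inside the annotated genes, before starts that shorter transcripts use, so upstream refers to those starts. Of the 5 starts listed for Egr2, this one has the most transcript starts within 1 base (3), with the upstream one taken in a tie.
Nr4a1: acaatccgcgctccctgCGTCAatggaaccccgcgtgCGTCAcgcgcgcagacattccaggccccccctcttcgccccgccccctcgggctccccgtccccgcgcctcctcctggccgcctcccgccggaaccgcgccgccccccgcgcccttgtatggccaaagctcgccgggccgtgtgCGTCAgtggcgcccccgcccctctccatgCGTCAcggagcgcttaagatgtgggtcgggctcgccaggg
Nr4a2: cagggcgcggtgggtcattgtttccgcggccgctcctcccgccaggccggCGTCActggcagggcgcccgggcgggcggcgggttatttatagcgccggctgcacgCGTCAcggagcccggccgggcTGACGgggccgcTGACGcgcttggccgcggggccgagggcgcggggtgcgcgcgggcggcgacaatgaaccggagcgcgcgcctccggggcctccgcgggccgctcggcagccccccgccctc
Nr4a3: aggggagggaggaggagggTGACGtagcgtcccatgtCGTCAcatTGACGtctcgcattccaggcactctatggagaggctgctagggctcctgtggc
Egr2: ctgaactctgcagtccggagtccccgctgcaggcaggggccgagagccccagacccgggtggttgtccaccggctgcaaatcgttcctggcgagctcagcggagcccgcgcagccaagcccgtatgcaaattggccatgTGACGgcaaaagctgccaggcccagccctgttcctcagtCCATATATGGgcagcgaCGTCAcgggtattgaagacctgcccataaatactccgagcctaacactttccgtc

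TGACG was found 4 times upstream of Nr4a1, 4 times upstream of Nr4a2 and 2 times upstream of Egr2, in 250 bases each. At least 1 match was present in 17.7% of 32817 RefSeq promoter windows cut to the same bases. How many windows held as many matches was not counted, and windows were not matched for GC content. The 98 bases of Nr4a3 held 3 matches, and 5.22% of windows cut to the same bases held at least 1. In every window these are the first 98 of the 250 bases before the RefSeq start, the part farthest from it. For Nr4a3 they end just before the start that GENCODE M21 annotates, so the places compared are not alike. A CArG box was found once upstream of Egr2 and in 1.47% of windows of that length, and not in the stretches of Nr4a1, Nr4a2 and Nr4a3. The whole palindrome TGACGTCA, the NR4A site AAAGGTCA and the NFAT core GGAAAA were searched on both strands too. None of them was found in the 4 stretches, whereas 1.55%, 1.34% and 20.4% of windows of 250 bases hold them. In 98 bases these shares were 0.162%, 0.503% and 9.27%. TGACG lies within TGACGTCA, so these 2 searches overlap. A match is a stretch of letters and not evidence that a factor binds there.

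The values are FPKM, fragment numbers divided by transcript length and by the depth of the library, so genes can be set side by side within a library. The Th0+Dopa and Th0 libraries numbered 2 are in 1 table and those numbered 3 in the other, and the tables were made separately. Differences were therefore taken within a table, and means over a group set levels across tables. FPKM summed to 794873 to 880583 in the Th0+Dopa libraries and 687066 to 715110 in the Th0 libraries. The number of fragments was estimated from low values, and by that estimate 1 fragment on 1 kb was worth 0.162 to 0.163 FPKM in Th0+Dopa libraries and 0.158 to 0.210 in Th0 libraries. Of the T cell markers, Cd4 was at 115 and 119.8 FPKM in Th0+Dopa libraries and at 122 and 122.9 in Th0 libraries, and all 8 passed the filter described next. Cd3d was called higher (0.48 ± 0.10) and Trac lower (-0.70 ± 0.10), with limma adjusted p-values of 0.0398 and 0.0148. Genes with a mean of at least 1 FPKM over the 4 libraries were tested with limma on log2(FPKM + 1), with the table as a block, and all 6 members passed this filter.

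Dopamine cultures held less Nr4a2 transcript, while the other members did not pass the test. Nr4a2 fell in both pairs of libraries. Egr2 was lower in both pairs by a smaller factor and stood just short of the threshold. Nr4a1 was near the same level in all libraries, whereas Nr4a3, Egr1 and Egr3 differed between the Th0+Dopa libraries themselves. Over all 11423 tested genes, 717 were called higher and 501 lower at an adjusted p under 0.05 (10.7% called, 6.28% higher and 4.39% lower). With libraries scaled to a common sum of FPKM these counts were 375 higher and 1070 lower, and the median difference of all genes was -0.20 in place of 0.03. Of the 6 members, 1 was called lower and 0 higher, and at an unadjusted p under 0.05 there were 3 lower and 0 higher. At that unadjusted limma threshold, 1388 of all 11423 tested genes were lower and 1789 higher. With so few members, 1 call does not set them apart from the 10.7% of all genes.

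**Figure D1:**
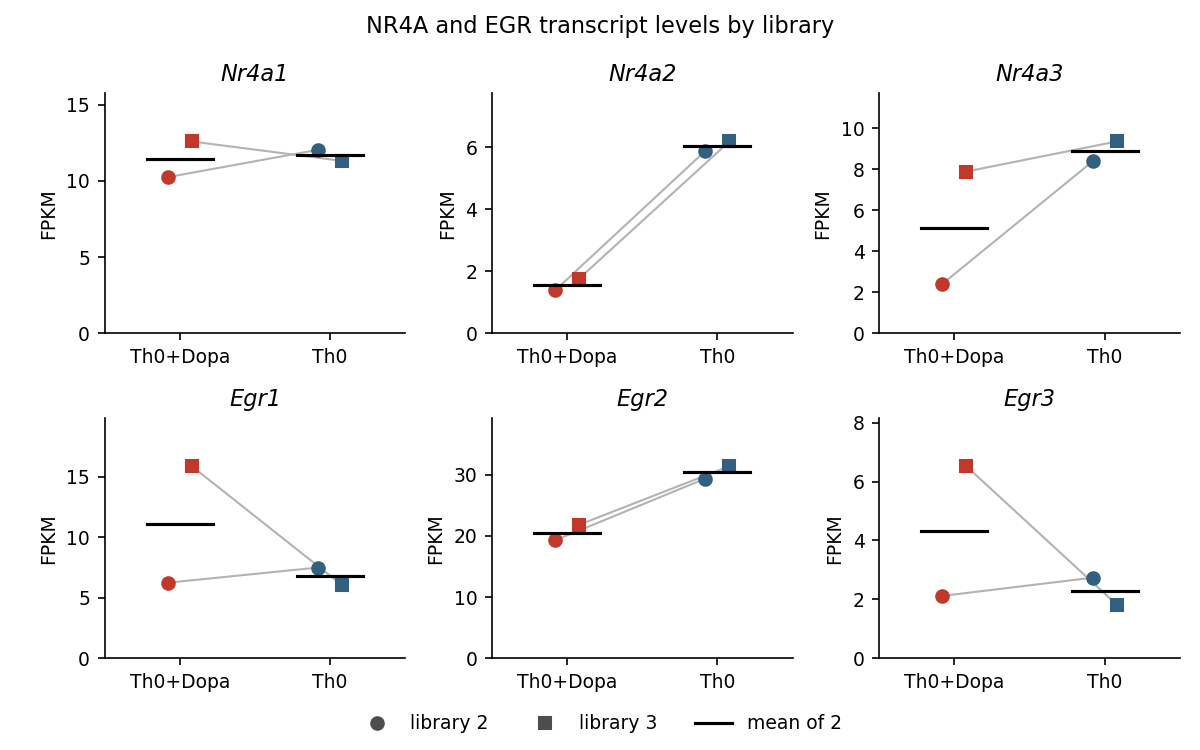
FPKM of each member (vertical axes, each from 0) in Th0+Dopa and Th0 libraries; circles are libraries 2, squares libraries 3, grey lines join libraries of the same table and black bars are means of 2. Both Th0+Dopa libraries lie below both Th0 libraries for Nr4a2, Nr4a3 and Egr2, an order that 25.6% of tested genes had. Egr1 and Egr3 are highest in Th0+Dopa 3.

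Nr4a2, the family member best known from the nervous system, had 1.39 and 1.77 FPKM in Th0+Dopa 2 and 3, against 5.89 and 6.19 FPKM in Th0 2 and 3. Both Th0+Dopa libraries were below both Th0 libraries, as for 25.6% of tested genes, and the libraries of each group lay close together. The level with dopamine was 4.25-fold lower in libraries 2 and 3.51-fold lower in libraries 3. A fall of at least 2-fold in both pairs was seen in 3.78% of tested genes. The limma estimate, Th0+Dopa minus Th0 on the log2(FPKM + 1) scale, was -1.45 ± 0.24 (SE, limma adjusted p = 0.0210), and its 95% interval ran from -2.04 to -0.87. This scale understates the change of a gene as low as Nr4a2, and with a pseudocount of 0.1 the estimate was -1.88. The values rest on roughly 20 and 25 fragments in the Th0+Dopa libraries and 85 and 68 in the Th0 libraries. Without any 1 of the libraries the call was lost (adjusted p = 0.140 to 0.287, estimates -1.55 to -1.36), in fits that called at most 3 genes in all. It was also lost with no filter on low values (adjusted p = 0.0566).

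Markers of other cells moved with the same groups. Of 11 tested macrophage and dendritic cell markers 10 fell and 0 rose, and all 8 tested granulocyte and mast cell markers fell. Over all tested genes 4.39% were called lower. The summed level of all 12 macrophage and dendritic cell markers was 33.3 and 34.7 FPKM in Th0+Dopa 2 and 3, against 260.4 and 346 FPKM in Th0 2 and 3. For the 10 granulocyte and mast cell markers it was 50.1 and 46.6 FPKM with dopamine, against 447 and 594 FPKM without. None of these 22 markers was listed at 0 in all libraries, and Elane was listed at 0 in both Th0+Dopa libraries. Myeloid cells can also express Nr4a and Egr genes, and the part of these cells in the Nr4a2 and Egr2 differences was not tested. In bulk samples, fewer cells of a type and less RNA per cell cannot be told apart. Markers of CD8 T, B, NK and erythroid cells included 0 calls. Past the filter were 2 of 7 B cell markers, 1 of 2 CD8 markers, 1 of 5 NK markers and 0 of 6 erythroid markers. Of these 1, Ighm, had an unadjusted p under 0.05, as had 3177 of all 11423 tested genes.

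Nr4a1 had 10.2 and 12.6 FPKM in Th0+Dopa 2 and 3, against 12.04 and 11.3 FPKM in Th0 2 and 3. The groups overlapped, and the pairs differed in sign, as they did for 29.2% of tested genes. The estimate was -0.04 ± 0.17 (limma adjusted p = 0.916), with a 95% interval from -0.46 to 0.39. A difference of the size seen for Nr4a2 lies outside this interval, but the 2 genes were not tested against each other. With libraries scaled to a common sum the estimate was -0.27, about as far below as the median of all genes moved, and it was 0.084 without Th0+Dopa 2 and 0.024 without Th0 2.

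Nr4a3, like Nr4a1 a gene needed for several forms of T cell tolerance in mice, had 2.41 and 7.88 FPKM in Th0+Dopa 2 and 3, against 8.38 and 9.35 FPKM in Th0 2 and 3. Both values with dopamine were below both without, but 7.88 FPKM lay near the Th0 level and 2.41 FPKM far below it. The level with dopamine was 3.48-fold lower in libraries 2 and 1.19-fold lower in libraries 3. The estimate was -0.84 ± 0.32 (limma adjusted p = 0.159, 95% interval -1.63 to -0.05). Without Th0+Dopa 2 it was -0.16, and without Th0+Dopa 3 it was -1.52, so the size of this difference depends on which Th0+Dopa library is used. The gap between the differences of the pairs was larger than in 95.991% of tested genes.

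Egr2, the most abundant member in every library, had 19.3 and 21.8 FPKM in Th0+Dopa 2 and 3, against 29.4 and 31.4 FPKM in Th0 2 and 3. The groups did not overlap, and the pairs were close to each other, with levels 1.52-fold and 1.44-fold lower with dopamine. The estimate was -0.54 ± 0.13 (limma adjusted p = 0.0507, 95% interval -0.86 to -0.23), which missed the threshold by a small margin. It passed with a pseudocount of 0.1 (limma adjusted p = 0.0366) and with a mean of at least 5 FPKM required (0.0385). It also passed with FPKM set to a common sum per library (0.0273) and with GC content and transcript length corrected for (0.0449). That pseudocount gave 906 higher and 631 lower calls over all genes, against 717 and 501. The median of all genes moved from 0.03 to -0.20 at a common sum, where the estimate for Egr2 was -0.79. Over all alternatives its adjusted p ranged from 0.0273 to 0.458. Egr2 is also made by macrophages, whose markers fell in the same libraries, as given above. Nr4a2, Nr4a3 and Egr2 were the 3 members with both Th0+Dopa libraries below both Th0 libraries, an order that 25.6% of tested genes had.

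Egr1, an early gene of most growth signals, had 6.24 and 15.9 FPKM in Th0+Dopa 2 and 3, against 7.49 and 6.03 FPKM in Th0 2 and 3. Th0+Dopa 3 stood apart, and the other 3 libraries lay close together. In libraries 3 the level with dopamine was 2.63-fold higher and in libraries 2 it was 1.20-fold lower. The estimate was 0.52 ± 0.36 (limma adjusted p = 0.400), and its 95% interval, -0.37 to 1.40, spans no change as well as a large rise. Without Th0+Dopa 3 the estimate was -0.080, and without Th0+Dopa 2 it was 1.11.

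Egr3, the partner of Egr2 in restraining T cells, had 2.12 and 6.52 FPKM in Th0+Dopa 2 and 3, against 2.74 and 1.82 FPKM in Th0 2 and 3. It followed the order of Egr1, with Th0+Dopa 3 high and the others low. The level with dopamine was 3.58-fold higher in libraries 3 and 1.29-fold lower in libraries 2. The estimate was 0.58 ± 0.43 (limma adjusted p = 0.431, 95% interval -0.48 to 1.63), while it was -0.049 without Th0+Dopa 3 and 1.195 without Th0+Dopa 2. These values rest on roughly 32 and 99 fragments with dopamine and 42 and 21 without. In libraries 3, 6.47% of tested genes were at least 2-fold higher with dopamine, and in libraries 2, where Nr4a2 and Nr4a3 were more than 2-fold lower, 6.67% were at least 2-fold lower.

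**Figure D2:**
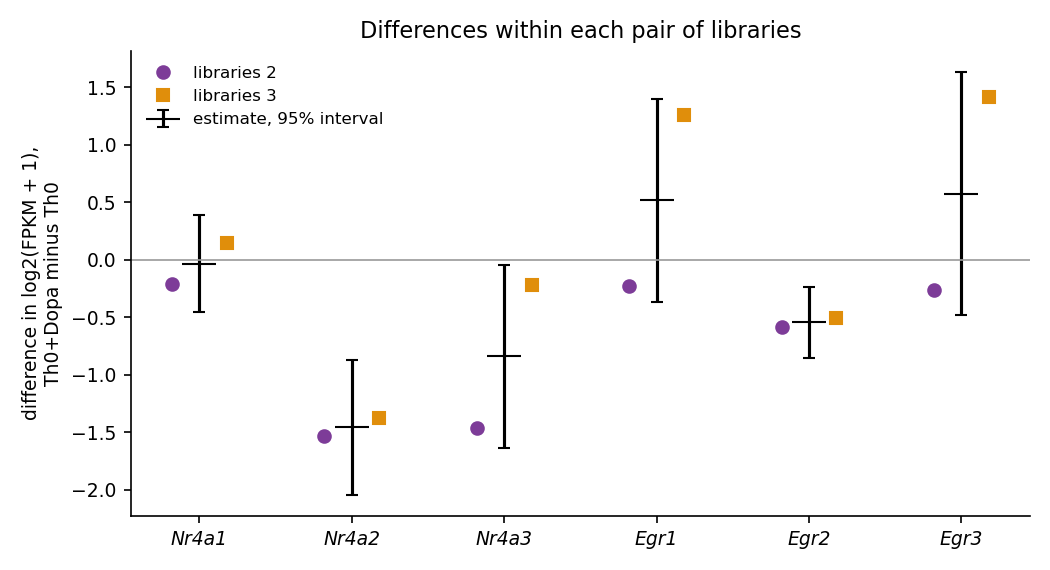
Difference in log2(FPKM + 1), Th0+Dopa minus Th0, for each member in libraries 2 (circles) and libraries 3 (squares), with the limma estimate and its 95% interval (black). The pairs lie close together for Nr4a2 (-1.53 and -1.38) and Egr2 (-0.58 and -0.51) and far apart for Nr4a3, Egr1 and Egr3.

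The disagreement of the pairs went with a difference between the Th0+Dopa libraries. From Th0+Dopa 2 to Th0+Dopa 3, which are in separate tables, the ratio of FPKM was 3.27 for Nr4a3, 2.54 for Egr1 and 3.08 for Egr3, but 1.23 for Nr4a1, 1.27 for Nr4a2 and 1.13 for Egr2. The median ratio over tested genes was 0.995, and 2.18% of tested genes had a ratio at least as high as that of Egr1. Between Th0 3 and Th0 2 the ratio of the members ranged from 0.666 for Egr3 to 1.12 for Nr4a3. The gap between the pairs was larger for Egr1 and Egr3 than in 97.4% and 97.8% of tested genes. The 3 members that varied in this way had mean transcript lengths of 3243 bases (Nr4a3), 3760 bases (Egr1) and 2454 bases (Egr3). Those of Nr4a1, Nr4a2 and Egr2 were 1567, 2299 and 1565 bases, and the median over tested genes was 1590 bases. Differences in libraries 2 and 3 were also corrected for GC content and length. The correction gave -1.44 and -0.35 for Nr4a3, -0.27 and 1.06 for Egr1, and -0.35 and 1.24 for Egr3. Without it they were -1.46 and -0.22, -0.23 and 1.26, and -0.26 and 1.41. Whether transcript length plays a part in the disagreement of the pairs was not tested.

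**Figure D3:**
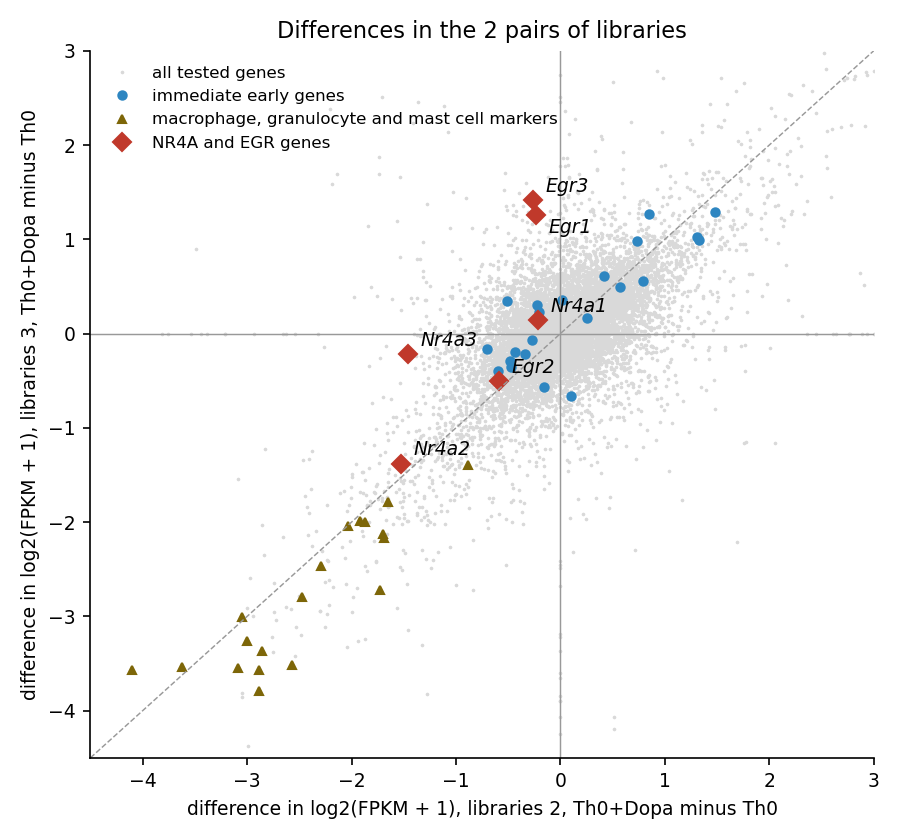
Difference in log2(FPKM + 1), Th0+Dopa minus Th0, in libraries 2 (horizontal axis) and libraries 3 (vertical axis) for all tested genes (grey), immediate early genes (blue), markers of myeloid and mast cells (brown) and the members (red), with the line of equal differences dashed. Egr1 and Egr3 lie toward the upper edge of the cloud, Nr4a3 toward its left edge, and Nr4a2 near the dashed line; 88 genes lie outside the axes.

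Within the NR4A family Nr4a2 made up a smaller share with dopamine in both pairs. Summed NR4A transcript was 14.04 and 22.2 FPKM in Th0+Dopa 2 and 3, against 26.3 and 26.8 FPKM in Th0 2 and 3. Nr4a2 made up 9.88% and 7.94% of it with dopamine, against 22.4% and 23.1% without. Nr4a1 made up 73.0% and 56.6% with dopamine, against 45.8% and 42.1% without, at a level of its own that was nearly the same. Summed EGR transcript was 27.6 and 44.2 FPKM in Th0+Dopa 2 and 3, against 39.6 and 39.2 FPKM in Th0 2 and 3. Egr2 made up 69.7% and 49.3% of it with dopamine, against 74.2% and 80.0% without. Nr4a3 shares overlapped, at 17.2% and 35.5% with dopamine, against 31.8% and 34.8% without. In libraries 2 the EGR shares were close, with Egr1 at 22.6% with dopamine and 18.9% without. The larger gap in libraries 3 goes with the high values of Egr1 and Egr3 in Th0+Dopa 3, and none of these shares was tested.

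**Figure D4:**
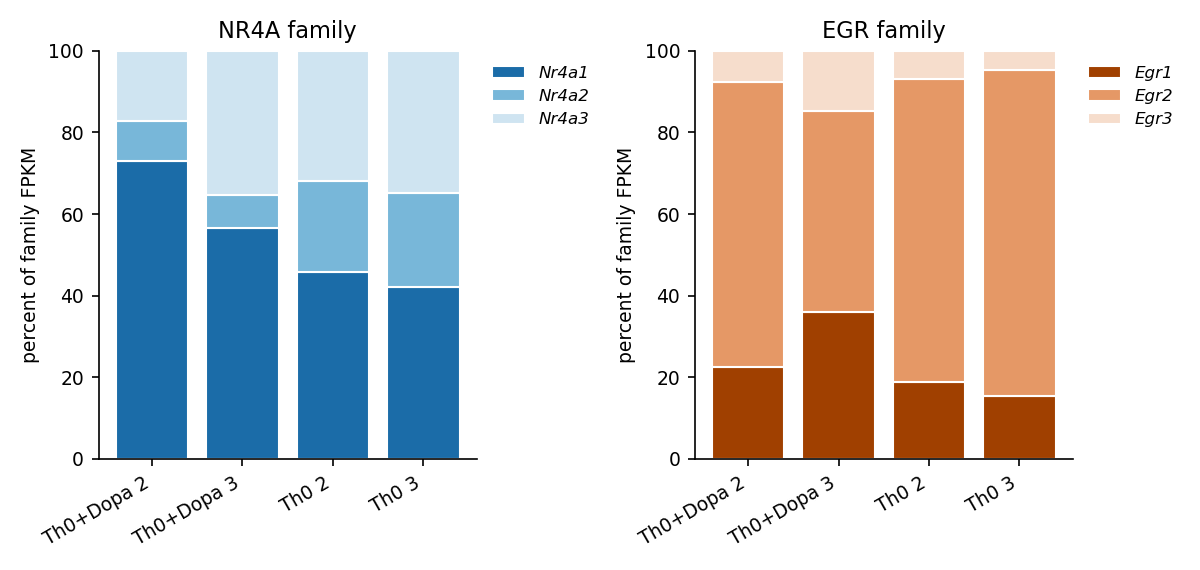
Share of each member in the summed FPKM of its family, in percent, in the Th0+Dopa and Th0 libraries. The Nr4a2 share is 9.88% and 7.94% in Th0+Dopa libraries and 22.4% and 23.1% in Th0 libraries.

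Ordered by level, with means and SD over 2 libraries from separate tables, Th0+Dopa cultures had Egr2 first (20.5 ± 1.801 FPKM). Nr4a1 (11.4 ± 1.65) and Egr1 (11.05 ± 6.81) came next and did not differ beyond their spread. Nr4a3 (5.15 ± 3.87) and Egr3 (4.32 ± 3.12) followed and overlapped too, and Nr4a2 was last in both libraries (1.58 ± 0.27). Within each Th0+Dopa library, however, Nr4a3 lay above Egr3. Th0 cultures also had Egr2 first (30.4 ± 1.43 FPKM), followed by Nr4a1 (11.7 ± 0.52) and Nr4a3 (8.86 ± 0.69). There Egr1 (6.76 ± 1.03) and Nr4a2 (6.04 ± 0.21) overlapped, and Egr3 was last (2.28 ± 0.65).

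The genes whose differences were most like each member's were found by the distance between centred log2(FPKM + 1) values over the 4 libraries. For Nr4a2 these were Serpinb2, a serine protease inhibitor of macrophages (distance 0.0577), the membrane protein gene Stom (0.0638) and Btk, a signalling kinase of B cells and myeloid cells (0.0662). Btk had 1.09 and 1.73 FPKM in Th0+Dopa 2 and 3, against 4.66 and 6.10 FPKM in Th0 2 and 3. For Egr2 they were the formin gene Daam1 (0.00504), the sialic acid esterase gene Siae (0.00734) and the deubiquitinase gene Otud1 (0.0125). For Nr4a1 they were Zfp708 (0.00274), Slf2 (0.00362) and Mrtfa (0.00538), the last a coactivator of SRF. Nr4a3 was closest to Cmah (0.0363), mt-Co2 (0.0526) and Cuedc1 (0.0896). Wdtc1 was among the nearest of both Egr1 (0.0593) and Egr3 (0.0907). The others were Atxn2l (0.0830) and Slc17a9 (0.0952) for Egr1, and Gpr19 (0.0791) and Sec24b (0.109) for Egr3. The search ran over 11423 genes and only 4 libraries, so some genes lie close to any member.

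Among 22 other tested immediate early genes, 6 rose and 1 fell with dopamine, and the median difference was 0.02, against 0.03 over all tested genes. Over all tested genes 6.28% were called higher and 4.39% lower. Junb, an AP-1 subunit, had 274 and 201 FPKM in Th0+Dopa 2 and 3, against 97.2 and 81.6 FPKM in Th0 2 and 3, an estimate of 1.39 ± 0.11 (limma adjusted p = 0.00242). The AP-1 subunit Jund (1.16 ± 0.15), the stress response gene Gadd45b (1.17 ± 0.15), the ERK phosphatase gene Dusp2 (1.06 ± 0.13), Ier2 (0.86 ± 0.13) and the transcription factor gene Irf4 (0.51 ± 0.11) also rose. Cd69, an early surface marker of activation, fell (-0.50 ± 0.11, limma adjusted p = 0.0441). It had 134 and 161 FPKM with dopamine, against 203 and 212 FPKM without. Jund, Ier2 and Cd69 were not called once GC content and transcript length were corrected for (0.46, 0.49 and -0.29), nor Ier2 and Irf4 at a common sum of FPKM (0.61 and 0.26). Dusp2, Ier2, Irf4 and Cd69 did not pass with no replicate block (limma adjusted p = 0.0630, 0.0621, 0.0748 and 0.104). With no filter on low values Irf4 and Cd69 did not (limma adjusted p = 0.0675 and 0.0673), and without limma's trend Junb alone of these 7 genes passed (adjusted p = 0.0479). Members not called included Myc (0.04 ± 0.15), Nfkbid (0.18 ± 0.13), Atf3 (-0.31 ± 0.13) and Btg2 (-0.41 ± 0.13). Fosb lay under the filter. The differences of NR4A and EGR genes were not tested against those of the other early genes.

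**Figure D5:**
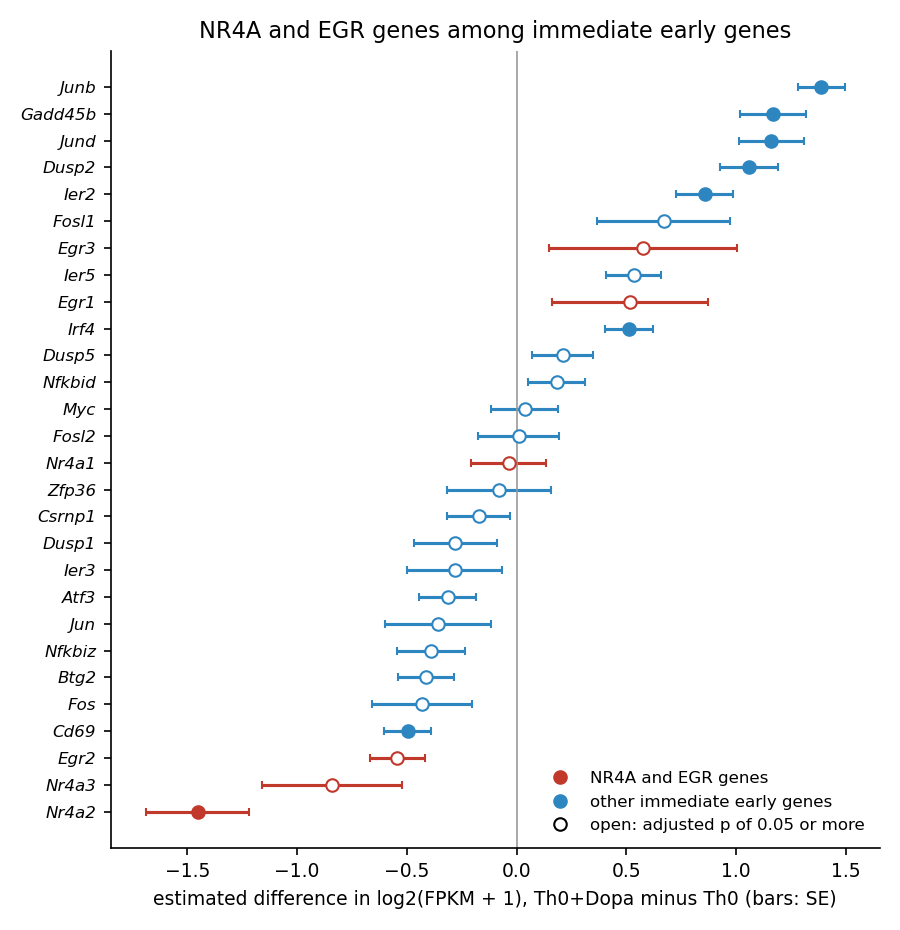
Estimated difference in log2(FPKM + 1), Th0+Dopa minus Th0, with its SE for the members (red) and 22 other immediate early genes (blue); filled points passed the test at a limma adjusted p under 0.05. Nr4a2 (-1.45) lies at the low end and Junb (1.39) at the high end.

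Genes of the signals that switch on NR4A and EGR genes mostly did not pass the test. Neither did most of all tested genes, of which 10.7% were called. Of 12 calcineurin and NFAT genes, 0 were called by limma, with 2 at an unadjusted p under 0.05, and the median was 0.04. An unadjusted p under 0.05 was found for 3177 of all 11423 tested genes. The calcineurin subunit genes Ppp3cc, Ppp3r1 and Ppp3ca had 0.43 ± 0.11, -0.24 ± 0.12 and -0.41 ± 0.15, and the calcium channel gene Orai1 had 0.04 ± 0.11. In this list 7 of 12 genes differed in sign between the pairs, against 29.2% of all tested genes. Nfatc1 and Nfatc2, named after their values were seen, had differences of -0.60 and -0.20 in libraries 2 and of 0.68 and 1.07 in libraries 3. The library Th0+Dopa 3 was thus high for them as it was for Egr1 and Egr3. Genes of other lists were higher in Th0+Dopa 3 than in Th0+Dopa 2 too, such as Ep300 (2.90-fold) and Cd3e (2.22-fold). Nfatc3 was 1.53-fold higher in that library. A link between these genes was not tested. Nfatc1 had 3.35 and 10.03 FPKM in Th0+Dopa 2 and 3, against 5.61 and 5.89 FPKM in Th0 2 and 3.

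Of all tested genes 6.28% were called higher and 4.39% lower. Of 14 genes from Ras through ERK to SRF, 1 rose and 0 fell (median 0.01). It was the ERK kinase gene Map2k2, at 69.8 and 55.5 FPKM with dopamine, against 35.2 and 33.0 FPKM without (0.85 ± 0.12, limma adjusted p = 0.0144). Of 11 cyclic AMP and CREB genes, 1 fell and 0 rose (median -0.18). Crem, whose products include a repressor that cyclic AMP induces, had 51.5 and 46.2 FPKM in Th0+Dopa 2 and 3, against 88.4 and 101 FPKM in Th0 2 and 3 (-0.94 ± 0.13, limma adjusted p = 0.0124). Creb1 itself had -0.20 ± 0.15 and Prkacb, a catalytic subunit of protein kinase A, -0.55 ± 0.15 (limma adjusted p = 0.447 and 0.0751), neither called. As with single members, calls in these lists were lost when a library was left out, when 0 of the 16 list genes called were kept. Without limma's trend 2 of the 16 were kept, Junb and Ctla4.

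Partners of the members were not called. The NAB corepressors bind EGR proteins and are themselves EGR targets. Nab2 had 0.31 ± 0.18 and Nab1 0.39 ± 0.14, and the retinoid X receptor genes Rxra and Rxrb, whose products pair with NR4A1 and NR4A2, had 0.32 ± 0.15 and 0.42 ± 0.15. By limma 0 of these 4 tested genes passed, where 10.7% of all tested genes did. An unadjusted p under 0.05 was found for 2 of the 4 and for 3177 of all 11423 tested genes. Egr4, the remaining EGR gene, lay under the filter with 0.599 and 0.743 FPKM in Th0+Dopa 2 and 3, against 0.0729 and 0.194 FPKM in Th0 2 and 3. Both values with dopamine were above both without, at levels too low to be tested. Of tested genes, 31.4% had that order.

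Of 16 genes tied to EGR2 or EGR3 in studies of T cell tolerance in mice, 2 fell and 2 rose (median -0.26). The shares over all tested genes were 4.39% lower and 6.28% higher. Tnfrsf9, the costimulatory receptor 4-1BB, fell by 1.27 on the log2 scale, with 67.2 and 58.7 FPKM in Th0+Dopa 2 and 3, against 156 and 151.0 FPKM in Th0 2 and 3 (limma adjusted p = 0.00301). Ndrg1, which is also a hypoxia gene, fell as well (-1.18 ± 0.18). Nrn1, coding for neuritin, rose (1.01 ± 0.12), as did Sema7a, a semaphorin (0.77 ± 0.16). The Sema7a call did not hold at a common sum or with GC content and length corrected for (0.53 and 0.40). It did not hold with no filter, with no replicate block or without the trend either (limma adjusted p = 0.0659, 0.0564 and 0.109). The diacylglycerol kinase gene Dgka had -0.09 ± 0.11 and Lag3 0.11 ± 0.13, neither called. Cblb, a ubiquitin ligase of anergic T cells named after its values were seen, had -0.60 in libraries 2 and 0.71 in libraries 3, with 10.5 FPKM in Th0+Dopa 3. Rnf128, on the same list and named in the same way, had -1.57 in libraries 2 and -0.88 in libraries 3 and was not called.

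Of 10 tested genes tied to NR4A factors in dysfunctional or regulatory T cells of mice, 2 fell and 1 rose (median -0.07). The shares over all tested genes were 4.39% lower and 6.28% higher. Ctla4, an inhibitory receptor, had 66.8 and 54.5 FPKM in Th0+Dopa 2 and 3, against 184 and 181 FPKM in Th0 2 and 3 (-1.58 ± 0.12, limma adjusted p = 0.00195). Il2, the growth factor of T cells, had 94.6 and 105 FPKM with dopamine, against 189 and 191 FPKM without (-0.93 ± 0.10). Havcr2, the inhibitory receptor TIM-3, rose (1.70 ± 0.26, limma adjusted p = 0.0166), with 9.72 and 7.87 FPKM with dopamine, against 1.58 and 2.48 FPKM without. Pdcd1, Tigit, Batf and Ifng had 0.28 ± 0.15, 1.08 ± 0.26, -0.05 ± 0.11 and -0.16 ± 0.22, none of them called. Foxp3 and Tox2 lay under the filter. Genes on this list moved in both directions, and such a list says nothing of which of them NR4A factors control in these cultures.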

How the data were processed

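RNA of 4 libraries was measured: 2 of Th0+Dopa and 2 of Th0 cultures. Per the labels' protocols, total RNA was sequenced paired-end from stranded libraries depleted of ribosomal and globin RNA. Per the submitters' processing notes, bcl2fastq 1.8.4, Trimmomatic 0.35, FastQC 0.10.1, STAR 2.4.2 and Cufflinks 2.2.1 were used with the mm10 build. The deposited values are FPKM, computed by the authors in 2 separate tables. Neither states the annotation, how FPKM were normalized or whether strand was used. GENCODE M21 (GRCm38, that is mm10) named 36423 of the 38282 gene IDs.

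Genes with a mean of at least 1 FPKM (11423) were tested in limma 3.58.1 under R 4.3.3 (lmFit, eBayes with trend) on log2(FPKM + 1). The table, equal to the replicate number, was a block, and the test was two-sided with Benjamini-Hochberg adjustment over all tested genes. A call is an adjusted p under 0.05. The model leaves 1 residual degree of freedom, and the prior adds 4.70. The block stands for the separate tables; deviations of same-numbered libraries from their group means correlated at r = 0.0869 over genes. The code was tested on simulated data. Depth is unknown apart from the fragment estimate, which took low values of genes with 1 transcript: 78.5% to 84.7% of these came out whole to within 0.15, where 30% would by chance. Fragments per member use the mean length of its transcripts, so they are rough.

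The members and all lists were chosen with earlier results of these data known. Named genes are the members, the called genes of each list with up to 4 more of the highest mean FPKM, and the 3 nearest genes of each member, leaving out Gm, Rik and small RNA names. Some genes that this rule names are not reported here. Outside the rule, and chosen after their values were seen, are Nfatc1, Nfatc2, Nfatc3, Ep300, Cblb, Rnf128, Cd4 and the other cell markers named. Genes under the filter are named to account for their lists. Alternatives were another pseudocount, other filters, other scalings, no trend, no block, each library left out, and a correction of each pair for GC content and length (loess, span 0.3).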

Additional observations from a re-analysis of the deposited data

How the results depend on the processing

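Of the 11 or 12 alternatives that gave a value, Nr4a2 kept its sign in 11 of 11 and passed in 6, and Egr2 kept its sign in 12 of 12 and passed in 4. With a mean of at least 5 FPKM required, Nr4a2 and Egr3 were not tested. Egr2 passed with a pseudocount of 0.1 (-0.56), that filter (-0.54), a common sum (-0.79) and the replicate block with the GC and length correction (-0.62). Nr4a2 did not pass with no filter on low values (-1.45). Members called lower then numbered 2, 1, 2, 2 and 0 for these 5 settings.

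With each library left out in turn, estimates ranged from -1.55 to -1.36 for Nr4a2, -0.61 to -0.48 for Egr2, -1.52 to -0.16 for Nr4a3, -0.16 to 0.08 for Nr4a1, -0.08 to 1.11 for Egr1 and -0.05 to 1.20 for Egr3. Reversed signs were 0.084 for Nr4a1 without Th0+Dopa 2, 0.024 for Nr4a1 without Th0 2, and -0.080 for Egr1 and -0.049 for Egr3 without Th0+Dopa 3. In these limma fits 0 to 1 genes were called higher and 0 to 2 lower, with 606 to 1533 and 645 to 1232 at an unadjusted p under 0.05. Of the members 0 were called (0 to 2 higher and 1 to 3 lower unadjusted), and of the list genes 0 higher and 0 lower (11 to 15 and 7 to 15 unadjusted). A lone library was assumed to vary like the others, and these fits used no block and the median of ratios.

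Calls over all genes, 717 higher and 501 lower, were 442 and 298 with no filter, 375 and 1070 with a common sum and 106 and 150 without limma's trend. They were 256 and 240 with no replicate block, and 446 and 402 with the GC and length correction. List genes called, 10 higher and 6 lower, were 7 and 12 with a common sum, 1 and 1 without the trend, and 6 and 5 with no replicate block, which changed no call of a member. The cause of these changes was not tested. Values under a few FPKM rest on few fragments.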
